A study of Homo sapiens with 6 samples.

Results

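The genes of sterol and fatty acid synthesis were followed in 3 human lines of Burkitt lymphoma, a B-cell lymphoma driven by translocated MYC: Namalwa, Raji and Ramos. A list of 30 genes was used, running from the SREBP transcription factors through the mevalonate pathway and cholesterol synthesis to fatty acid synthesis, desaturation and lipin. Of these, 27 were measured by at least 1 probe set annotated to that gene alone, and all 27 lay at or above the level minimum, a log2 intensity of 4.42 (the median of all probe sets that are not controls), on all 6 arrays. CYP51A1 and FADS1 were read only by probe sets annotated to 2 genes and were not tested, and FDFT1 was not analysed here. A gene is represented by its brightest probe set, out of 19775 genes on the array, of which 12012 passed the level minimum and were tested.

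Total RNA was hybridised to Affymetrix U133 Plus arrays, 1 array for each line and group. Each line was transfected, and gave 1 sample labelled empty and 1 labelled miR26a, so that each group held 3 arrays. Per the labels, microRNA expression was induced with doxycycline at 0.5 µg/ml for 72 h, and that treatment is listed for all 6 samples. What the empty construct holds, whether the lines were clones or pools and how many cultures each was taken from are not stated, so the p-values cover only how far these samples vary, which may be technical. By its title, the study concerned miR-26a as a link from MYC to the methyltransferase EZH2. Raji and Namalwa carry Epstein-Barr virus and Ramos does not, as background.

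Cells make cholesterol from acetyl-CoA by way of mevalonate, squalene and lanosterol, and make saturated and unsaturated fatty acids from the same acetyl-CoA. The SREBP factors, held in the endoplasmic reticulum by INSIG proteins when sterols are plentiful, switch on nearly all enzymes of both routes when sterols run low, usually together with the CCAAT-binding factor NF-Y. When sterols are in excess, LXR receptors instead switch on exporters such as ABCA1 and ABCG1. Growing lymphoid cells need both routes for new membranes.

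The microRNA that defines the groups is shown with its seed, bases 2 to 8, in capitals. RefSeq lists the same mature sequence from 2 loci, MIR26A1 on chromosome 3 and MIR26A2 on chromosome 12 (GRCh38.p14).
hsa-miR-26a-5p: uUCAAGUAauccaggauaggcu

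Promoters of 4 members follow, since the members differed together between lines: SREBF2, the factor of the sterol branch; DHCR7 and LSS, among those with the largest differences between lines; and MSMO1, with the largest change between groups. Each run covers the 150 bases before the RefSeq start, 5′ to 3′ on the gene's strand, with CCAAT boxes (CCAAT or its complement ATTGG) and, in SREBF2, the sterol response element TCACNCCAC in capitals. They lie at chr22:41832955-41833104 on the plus strand, chr11:71448394-71448543 on the minus strand, chr21:46228775-46228924 on the minus strand and chr4:165327519-165327668 on the plus strand (GRCh38.p14).
SREBF2: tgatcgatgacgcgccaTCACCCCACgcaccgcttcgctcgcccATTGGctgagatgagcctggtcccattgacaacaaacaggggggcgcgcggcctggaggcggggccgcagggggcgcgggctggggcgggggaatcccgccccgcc
DHCR7: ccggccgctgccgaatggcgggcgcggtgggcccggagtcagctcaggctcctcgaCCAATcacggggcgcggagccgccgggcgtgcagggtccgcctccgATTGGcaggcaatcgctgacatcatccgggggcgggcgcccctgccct
LSS: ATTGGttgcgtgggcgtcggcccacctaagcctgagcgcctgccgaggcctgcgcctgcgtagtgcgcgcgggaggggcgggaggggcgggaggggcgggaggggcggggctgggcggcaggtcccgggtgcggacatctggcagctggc
MSMO1: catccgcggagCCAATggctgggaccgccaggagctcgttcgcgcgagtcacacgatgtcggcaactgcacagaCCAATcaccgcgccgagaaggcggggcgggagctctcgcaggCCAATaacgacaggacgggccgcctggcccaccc

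B-cell markers were present throughout: all 7 measured (MS4A1, CD79A, CD79B, PAX5, CD22, BLNK and EBF1) lay above the level minimum on every array. Of the defining markers of other cells, all 6 arrays lay below it for 5 of 6 of T and NK cells, 4 of 5 of monocytes, 3 of 4 of hepatocytes and 3 of 4 of adipocytes, and for 1 of 4 of fibroblasts, among which COL1A1 read 6.53 to 7.15. The array medians of these 5 lists lay between 3.16 and 5.09, against 8.87 to 9.53 for B-cell markers. In bulk RNA, fewer cells with a transcript and less of it per cell cannot be told apart. Array medians ran from 4.36 to 4.44. One array stood apart in a sign of RNA quality: the log2 signal of the 3′ ACTB control probe set less that of the 5′ one was 3.58 on the Namalwa empty array and 1.80 to 1.98 on the other 5. Probe sets differ in how brightly they report a given RNA, so levels are compared between arrays for 1 gene and never between genes.

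Raji stood out with high sterol synthesis RNA. Of the 27 members, 18 exceeded their Namalwa level in Raji and 1 was lower (limma, adjusted p under 0.05 over all genes), where 46.1% of all tested genes differed, 22.8% higher and 23.4% lower in Raji. Against Ramos 21 members were higher in Raji and 2 lower, where 50.5% of all tested genes differed, 26.1% higher and 24.4% lower. At least 2-fold higher in Raji were 9 members against Namalwa (5.99% of all tested genes) and 16 against Ramos (6.88%), and at least 2-fold lower were 0 (8.03%) and 1 (8.67%). The median difference of the members between Namalwa and Raji was -0.90 log2, against -0.05 over all tested genes, and between Raji and Ramos 1.12 against 0.06. Both Raji arrays lay above the other 4 for 21 members (30.9% of all tested genes) and below them for 1 (26.1%). These comparisons share the Raji arrays. Leaving out any 1 array gave 17 to 19 calls against Namalwa and 20 to 23 against Ramos, and without limma's moderation of the spread 1 and 6 members passed.

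**Figure D1:**
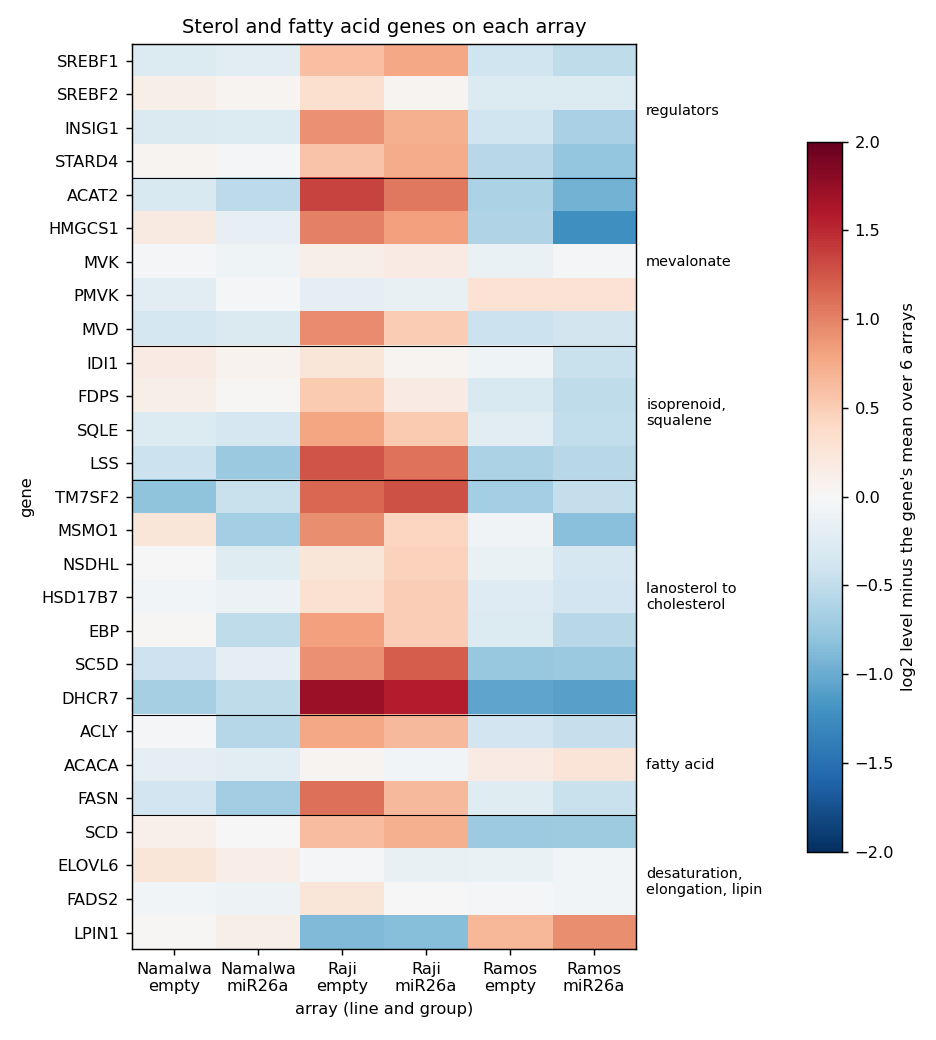
Colour gives the log2 level of each of the 27 genes (rows, grouped by pathway step) on each of the 6 arrays (columns), less the gene's mean over the arrays; red is above and blue below that mean. The 2 Raji columns are red for most rows, and LPIN1 is blue there.

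Regulators came first in the pathway. SREBF1, the SREBP gene tied mostly to fatty acid synthesis, had log2 levels of 5.57 in the empty and 5.64 in the miR26a array of Namalwa, 6.45 and 6.62 in Raji, and 5.46 and 5.34 in Ramos. Both Raji arrays were above all others, and the level in Raji was 1.90-fold that of Namalwa (limma adjusted p = 2.97e-04) and 2.21-fold that of Ramos (adjusted p = 6.93e-05). A second, dimmer SREBF1 probe set put Raji only 0.24 log2 above Namalwa and 0.29 above Ramos, and with the mean of both Namalwa minus Raji was -0.58 in place of -0.93 and Raji minus Ramos 0.72 in place of 1.14. INSIG1, itself an SREBP target that retains SREBP in the endoplasmic reticulum, read 9.78 and 9.80 in Namalwa, 11.0 and 10.8 in Raji and 9.68 and 9.42 in Ramos. Raji again exceeded the rest without overlap, 2.14-fold over Namalwa and 2.53-fold over Ramos. STARD4, a carrier that moves cholesterol between membranes, gave 7.53 and 7.45, 8.06 and 8.23, and 6.94 and 6.72 in Namalwa, Raji and Ramos. The lines separated completely and in that order, Raji over Namalwa over Ramos, with 1.57-fold from Raji to Namalwa and 1.58-fold from Namalwa to Ramos (limma adjusted p = 0.0112). SREBF2, the SREBP gene of the sterol branch, differed little, with line means of 7.36, 7.46 and 7.0. Its other probe sets put Raji 0.09 and 0.41 log2 above Ramos, and the mean of all its probe sets 0.32. By the brightest, SREBF2 was higher in Raji than in Ramos by 0.46 log2 (SE 0.13, limma adjusted p = 0.0149). Its difference from Namalwa did not pass (adjusted p = 0.582). That call was lost without the Raji empty array (adjusted p = 0.126) or the Ramos empty array (adjusted p = 0.175).

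In the mevalonate part, 3 of 5 members were higher in Raji than in Namalwa. ACAT2, which joins acetyl-CoA units, read 8.68 and 8.45 in Namalwa, 10.3 and 10.0 in Raji, and 8.35 and 8.04 in Ramos. Raji was far above both, by 3.06-fold (limma adjusted p = 4.91e-06) and 3.96-fold (adjusted p = 9.65e-07). HMGCS1, the HMG-CoA synthase, had levels of 8.0 and 7.66, then 8.82 and 8.64, then 6.59 to 7.22 in Ramos. Each line stood clear of the next: Raji exceeded Namalwa 1.87-fold, and Namalwa exceeded Ramos 1.89-fold (limma adjusted p = 0.00256). A second HMGCS1 probe set put Raji 2.07 log2 above Namalwa, against 0.91 for the brightest one. MVD, which decarboxylates mevalonate diphosphate, had 4.65 and 4.71 in Namalwa, 5.94 and 5.50 in Raji and 4.57 and 4.63 in Ramos. Namalwa and Ramos lay close to the level minimum, and Raji was above them by 2.06-fold and 2.18-fold. The kinases between them did not follow: MVK had line means of 7.85, 8.05 and 7.84 and passed in no pair of lines, and PMVK, at 7.85, 7.81 and 8.28, was lower in Raji than in Ramos, with a difference of -0.46 log2 (SE 0.12, limma adjusted p = 0.0119). The PMVK call was lost without the Ramos empty array (adjusted p = 0.141) or the Ramos miR26a array (adjusted p = 0.054). With the mean of all 4 MVK probe sets in place of the brightest, MVK was higher in Raji than in Namalwa (adjusted p = 0.0118) and Ramos (adjusted p = 0.00698).

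The steps from isopentenyl diphosphate to lanosterol split into an early part with small and a late part with large differences. IDI1, the isomerase, and FDPS, which makes farnesyl diphosphate, had line means of 10.1, 10.1 and 9.69 and of 10.5, 10.8 and 10.1 in Namalwa, Raji and Ramos. Neither differed between Raji and Namalwa (limma adjusted p = 0.891 and 0.108), while both were higher in Raji than in Ramos, by 0.41 log2 (SE 0.13) and 0.75 log2 (SE 0.13). The IDI1 call was lost when array medians were set equal (adjusted p = 0.0598) and without either Raji or either Ramos array (adjusted p from 0.0584 to 0.267). SQLE, squalene epoxidase, had 8.72 and 8.65 in Namalwa, 9.77 and 9.52 in Raji and 8.77 and 8.49 in Ramos. Raji lay above with no overlap, by 1.94-fold and 2.02-fold. LSS, which closes squalene epoxide into lanosterol, stood at 7.61 and 7.30, at 9.30 and 9.12, and at 7.41 and 7.49. Namalwa and Ramos overlapped, with a fitted difference of 0.01 log2 (SE 0.14), and Raji was 3.37-fold above Namalwa (limma adjusted p = 6.19e-06) and 3.38-fold above Ramos.

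From lanosterol to cholesterol Raji exceeded both Namalwa and Ramos in all 7 measured members. DHCR7, the reductase that makes cholesterol from its last precursor in this branch, had levels of 7.19 and 7.35 in Namalwa, 9.58 and 9.42 in Raji and 6.81 and 6.78 in Ramos. No member differed more between lines: Raji exceeded Namalwa 4.69-fold and Ramos 6.55-fold (limma adjusted p = 8.65e-07 and 1.90e-07), and Namalwa exceeded Ramos 1.40-fold (adjusted p = 0.0381). TM7SF2, a sterol reductase that acts just after CYP51A1, had 7.04 and 7.40 in Namalwa, 8.99 and 9.11 in Raji and 7.16 and 7.37 in Ramos. Namalwa and Ramos overlapped, and Raji was 3.55-fold and 3.45-fold above them. SC5D, the sterol desaturase, had 7.97 and 8.18, then 9.29 and 9.59, then 7.62 and 7.63. The 3 lines did not overlap, and Raji was 2.57-fold over Namalwa and 3.52-fold over Ramos. With the mean of both SC5D probe sets, the second of which lay below the level minimum, Namalwa minus Raji was -0.69 log2 in place of -1.36 and Raji minus Ramos 0.98 in place of 1.82.

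The C4-demethylation steps differed less. MSMO1, the methyl sterol oxidase, had 9.17 and 8.25 in Namalwa, 9.86 and 9.35 in Raji and 8.86 and 8.09 in Ramos. Its empty arrays were the higher ones in every line, so its SD between the arrays of a line reached 0.65, the largest of any member (median over members and lines 0.12). Raji was still above by 1.86-fold and 2.19-fold (limma adjusted p = 5.52e-04 and 1.11e-04), though the call against Namalwa was lost with no group term in the fit (adjusted p = 0.0565). NSDHL and HSD17B7, the dehydrogenase and ketoreductase of the same demethylation, were higher in Raji by 0.47 (SE 0.15) and 0.48 (SE 0.13) log2 over Namalwa and by 0.58 (SE 0.15) and 0.71 (SE 0.13) over Ramos. Both calls against Namalwa were lost without the Namalwa miR26a array (adjusted p = 0.197 and 0.0843) or the Raji miR26a array (adjusted p = 0.277 and 0.117), and the NSDHL call against Ramos without the Raji miR26a (adjusted p = 0.102) or Ramos miR26a array (adjusted p = 0.0885). A second NSDHL probe set put Raji 0.91 log2 above Namalwa and 0.88 above Ramos. With the mean of both NSDHL probe sets, Namalwa minus Raji was -0.69 in place of -0.47 and Raji minus Ramos 0.73 in place of 0.58. EBP, the sterol isomerase, had 8.58 and 8.06, then 9.38 and 9.06, then 8.28 and 8.0. Raji was clear of the other lines, 1.87-fold over Namalwa and 2.11-fold over Ramos, whose own values overlapped. All 4 EBP probe sets put Raji higher, by 0.17 to 1.29 log2 over Namalwa and 0.17 to 1.40 over Ramos. In 1 of them Namalwa empty (7.61) exceeded both Raji arrays (7.34 and 7.18). With the mean of all EBP probe sets, Namalwa minus Raji was -0.65 in place of -0.90 and Raji minus Ramos 0.84 in place of 1.08.

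Among fatty acid genes the pattern was mixed. FASN, the fatty acid synthase, had 6.90 and 6.58 in Namalwa, 8.38 and 7.91 in Raji and 7.03 and 6.83 in Ramos, a 2.66-fold and 2.33-fold higher level in Raji (limma adjusted p = 1.72e-05 and 4.16e-05). Its other probe set above the level minimum, with a mean of 4.78, put Raji only 0.11 log2 above Namalwa and -0.01 from Ramos. ACLY, which makes cytosolic acetyl-CoA from citrate, had 10.5 and 9.93, then 11.3 and 11.2, then 10.1 and 10.0. Raji was 2.02-fold and 2.20-fold above the others. ACACA, the acetyl-CoA carboxylase between those enzymes, had line means of 8.21, 8.41 and 8.62 and passed in no pair of the fit used throughout. It was lower in Namalwa than in Ramos with array medians set equal (limma adjusted p = 0.0298), with a robust prior that follows intensity (adjusted p = 0.0326), with a level minimum at percentile 75 (adjusted p = 0.0368) and without either Raji array (adjusted p = 0.0339). With the mean of its probe sets that difference was 0.05 log2 in place of -0.41. SCD, the stearoyl desaturase, had 10.2 and 10.1 in Namalwa, 10.7 and 10.8 in Raji and 9.34 and 9.35 in Ramos. The order was Raji, Namalwa, Ramos without overlap, and each neighbouring pair passed: 1.51-fold from Raji to Namalwa and 1.72-fold from Namalwa to Ramos (limma adjusted p = 0.00328 and 0.00305). The other 3 SCD probe sets put Raji 1.017 to 1.497 log2 above Namalwa, against 0.60 for the brightest one. ELOVL6, an elongase, and FADS2, a polyunsaturate desaturase, passed in no pair, with line means of 8.76, 8.47 and 8.48 and of 4.96, 5.16 and 4.99.

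LPIN1, the phosphatidate phosphatase lipin, ran the opposite way. Its levels were 7.35 and 7.45 in Namalwa, 6.44 and 6.48 in Raji and 8.0 and 8.26 in Ramos. The lines did not overlap and the order was Ramos, Namalwa, Raji: Raji was lower than Namalwa, with a difference of -0.93 log2 (SE 0.13, limma adjusted p = 2.43e-04) and Ramos exceeded Raji 3.18-fold. All 3 LPIN1 probe sets read lower in Raji, with differences from -0.997 to -0.11 log2 against Namalwa and from -1.67 to -1.09 against Ramos.

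**Figure D2:**
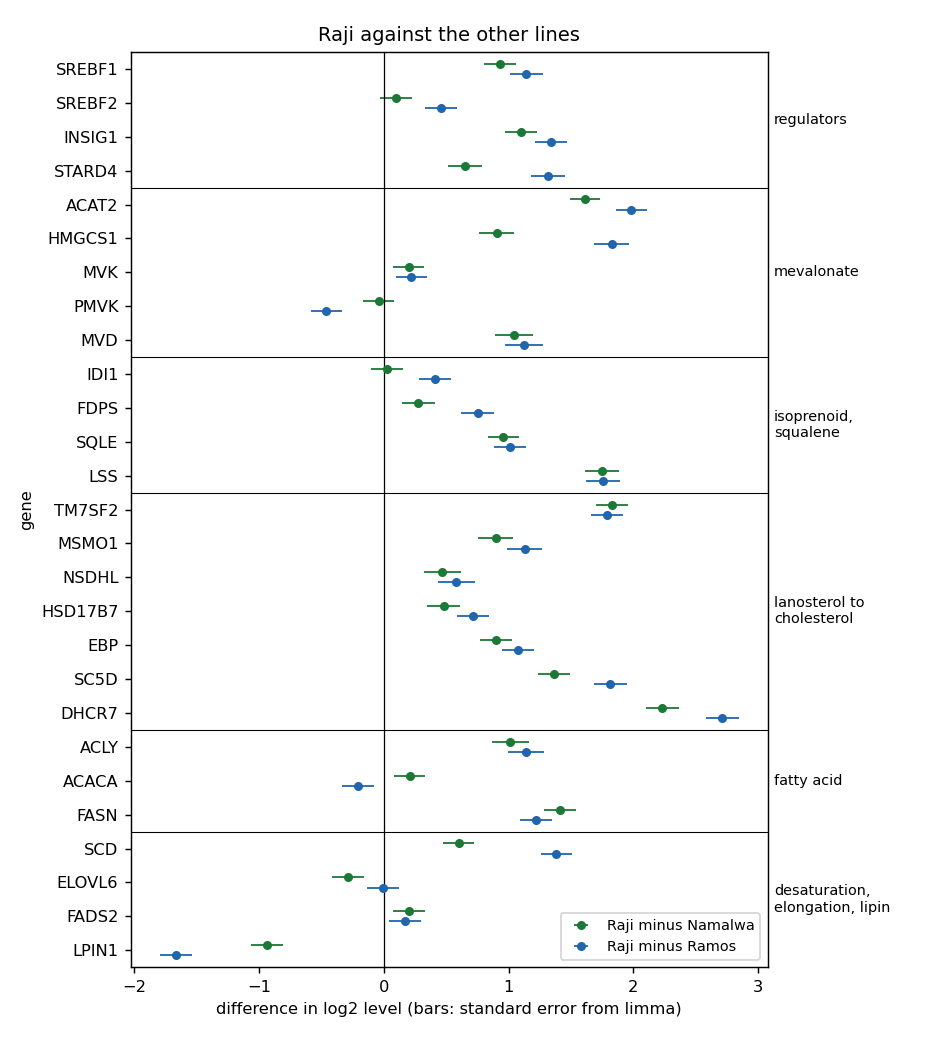
Points give the difference in log2 level between Raji and Namalwa (green) and between Raji and Ramos (blue) for each of the 27 genes, with the standard error from limma as bars. All 7 genes from lanosterol to cholesterol lie to the right of 0 in both, DHCR7 farthest, and LPIN1 lies to the left.

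Namalwa and Ramos were much closer. Of all tested genes 14.7% differed between them, 8.09% higher and 6.57% lower in Namalwa. Of the members 6 were higher in Namalwa, HMGCS1, SCD, STARD4, DHCR7, FDPS and SC5D. LPIN1 was lower, with a difference of -0.73 log2 (SE 0.13, limma adjusted p = 0.00467). A 2-fold difference was reached by 0 members, where 1.69% of all tested genes were at least 2-fold higher and 1.14% lower. Line means of 20 members ran in the order Raji, Namalwa, Ramos, and for 6 of them the step from Namalwa to Ramos passed. The share of all tested genes in that order was not computed, and Raji's place in it restates the differences above. By sign alone, Namalwa lay above Ramos for 21 members and for 6036 of the 12012 tested genes. The count of 7 members, LPIN1 included, rested on single arrays: 3 passed on leaving out either Namalwa array, 4 on leaving out Ramos empty and 2 on leaving out Ramos miR26a. HMGCS1 and SCD passed each time, while FDPS, SC5D and DHCR7 passed in none of these (adjusted p from 0.0596 to 0.415). STARD4 and LPIN1 were lost without Ramos miR26a (adjusted p = 0.137 and 0.0626), and STARD4 also without either Namalwa array (adjusted p = 0.0775 and 0.0568).

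Among 44 other genes of lipid supply, 38 were tested. Against Namalwa, 13 were higher and 12 lower in Raji, where 22.8% and 23.4% of all tested genes were, and against Ramos 13 were higher and 11 lower, where 26.1% and 24.4% were. The list had no common direction. The largest differences were in sterol export. ABCG1, which passes cholesterol to lipoproteins, had 7.94 and 7.78 in Namalwa, 1.90 and 2.01 in Raji, and 7.82 and 8.08 in Ramos. Both Raji arrays were below the level minimum of 4.42, so that the differences of -5.91 and -6.0 log2 rest on a Raji signal close to background and are not exact. ABCA1, the exporter that loads apolipoprotein A-I, had 7.82 and 8.02, then 3.77 and 2.96, then 8.19 and 8.56, and was likewise near background in Raji. Every probe set of ABCG1 (4 of 4) had its lowest line mean in Raji, and so did the 2 of ABCA1 that exceeded the level minimum in any array; the other two lay below it throughout. On the side of synthesis, ERG28, a scaffold of the C4-demethylation enzymes, had 7.21 and 7.25 in Namalwa, 8.43 and 8.38 in Raji and 6.38 and 6.24 in Ramos. The lines did not overlap, and the order was that of STARD4 and SCD. SLC25A1, the mitochondrial citrate carrier that feeds ACLY, was higher in Raji by 1.68 log2 over Namalwa and 2.00 over Ramos, and the acyl-CoA synthetase ACSL1 by 1.48 over Namalwa.

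**Figure D3:**
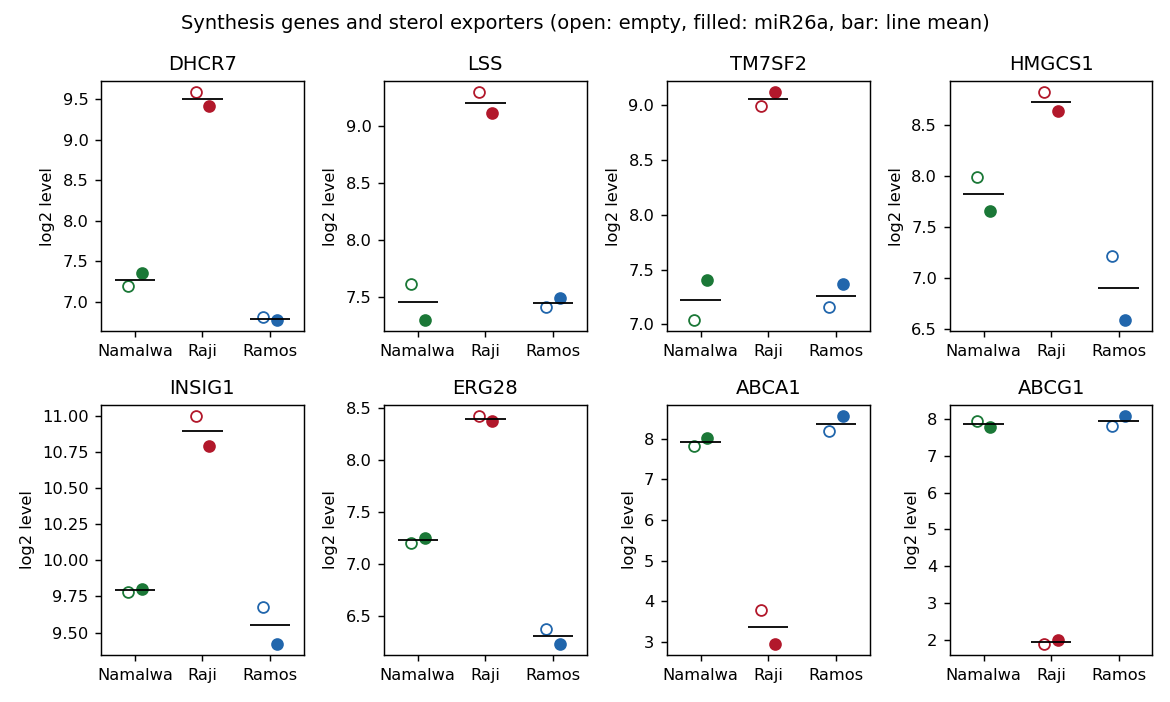
Each panel gives the log2 level of 1 gene in every array (open circles empty, filled circles miR26a, bars the mean of the line; axes differ between panels and do not start at 0). DHCR7, LSS, TM7SF2, HMGCS1, INSIG1 and ERG28 are highest in Raji, where ABCA1 and ABCG1 lie below the level minimum of 4.42.

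Between Namalwa and Ramos 5 of the 38 passed, a share close to the 14.7% of all tested genes. MYLIP, a ubiquitin ligase that removes lipoprotein receptors, was higher in Namalwa by 1.24 log2 (SE 0.14, limma adjusted p = 5.00e-04). ERG28 and NPC2, a lysosomal cholesterol carrier, were higher there by 0.92 and 0.70, and GPAM, which starts glycerolipid synthesis, and ELOVL5 were lower by -0.71 and -0.58.

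The promoters of 26 members were matched in the RefSeq table, as 37 windows of 250 bases before to 50 after a start; ACAT2, FDFT1, SQLE and FASN had none. CCAAT, on either strand, was in 24 of the 37 windows (64.9%), against 34.6% of all 35116 windows. The sterol response element TCACNCCAC was in 1 of 37 (SREBF2), against 1.13% of all. The shorter form CACCNCAC, which overlaps it in SREBF2, was in 2 of 37 (5.41%), that window and 1 of SCD, against 5.98% of all. The E-box CACGTG, a motif of MYC and of SREBP1, was in 4 of 37 windows (10.8%), those of INSIG1, LSS and SC5D, against 7.26% of all. The SC5D windows with it overlap, and the LSS match lay after the start. Of the 20 members with CCAAT, 14 exceeded Namalwa in Raji (22.8% of all tested genes) and 17 exceeded Ramos (26.1%). Of the 4 measured members without it (SREBF1, PMVK, ELOVL6 and LPIN1) 1 did in each case, SREBF1. CYP51A1 and FADS1 also lacked it but were not tested. Their shared probe sets all read highest in the Raji arrays, 1 of FADS1 at 7.0 and 6.55 against 4.55 to 5.87 elsewhere. ACAT2, SQLE and FASN, also higher in Raji, had no window and fall in neither class. This split was made after the levels were seen and is a description with no test, and windows of 1 gene share sequence.

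Between the groups, no member passed over all genes (limma, 0 of 27, where 0% of tested genes passed). The smallest adjusted p over all genes was 0.073. Before adjustment, at p under 0.05, 5 members were lower with miR26a and 0 higher, where 7.33% of all tested genes were lower and 5.56% higher. MSMO1, HMGCS1, EBP, FASN and ACAT2 were the 5. Lower in all 3 lines were 11 members (19.6% of all tested genes) and higher in all 3 were 4 (15.5%), PMVK, TM7SF2, SC5D and LPIN1; the other 12 had mixed signs. Of the 11, SREBF2 and FADS2 count only by a difference in Ramos that rounds to 0.00, as does PMVK of the 4. The median change of the members was -0.09 log2, against -0.01 over all tested genes, and by line it was -0.07 (Namalwa), -0.16 (Raji) and -0.07 (Ramos). Of the 38 other lipid genes 0 passed (limma; before adjustment 1 higher and 3 lower), with a median of 0.01.

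MSMO1 had the largest change of the members and ranked 11 by p among 12012 genes. With the levels given above, 53.0% of the empty level was left in Namalwa, 70.4% in Raji and 58.6% in Ramos. The mean paired change was -0.73 log2 (SE 0.11, 95% interval -0.98 to -0.48, limma adjusted p = 0.073), and an exact two-sided sign-flip test over the 3 pairs gave 0.25, the smallest p that 3 pairs allow. The single MSMO1 probe set leaves no second reading of it. The adjusted p was 0.00921 without Raji, 0.320 without Namalwa, whose empty array had the high 3′ ACTB signal, and 0.0802 without Ramos; the change without Namalwa was -0.64.

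Other members with a lower mean were spread over the pathway. The changes of HMGCS1 were -0.34 (Namalwa), -0.18 (Raji) and -0.63 (Ramos), with a mean of -0.38 (SE 0.12, limma adjusted p = 0.201). Its second probe set gave 0.02, -0.87 and -0.33, so that the order of the lines depended on the probe set. EBP, at -0.52, -0.32 and -0.28, had a mean of -0.38 (SE 0.10, limma adjusted p = 0.171). FASN was at -0.31, -0.47 and -0.20 and ACAT2 at -0.22, -0.30 and -0.31 in Namalwa, Raji and Ramos, and neither passed (limma adjusted p = 0.231 and 0.276). FDPS, with array levels of 10.6 and 10.5 in Namalwa, 11.0 and 10.6 in Raji and 10.1 and 9.95 in Ramos, was the member of the squalene steps with the smallest p. Its mean was -0.22 (SE 0.11, limma adjusted p = 0.433), and the levels of the groups overlapped.

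The regulators gave small values by their brightest probe sets. INSIG1 was at -0.15 (95% interval -0.39 to 0.09), SREBF2 at -0.11, STARD4 at -0.05 and SREBF1 at 0.04. In Raji the other INSIG1 probe sets gave -0.55 and -0.68, against -0.21 for the brightest. They gave 0.06 and -0.05 in Namalwa and -0.24 and -0.01 in Ramos. With the mean of all its probe sets INSIG1 was at -0.21 (limma adjusted p = 0.403). DHCR7, with the largest differences between lines, was at -0.01 between the groups (95% interval -0.25 to 0.23), and SCD at 0.00 (95% interval -0.23 to 0.23). TM7SF2 had the largest positive mean, 0.23 (SE 0.10, limma adjusted p = 0.392), from 0.36, 0.13 and 0.21 in the lines in that order. In the last step group LPIN1 had the smallest p, with 0.10, 0.04 and 0.26 in Namalwa, Raji and Ramos and a mean of 0.13 (SE 0.10, limma adjusted p = 0.642). Whether a member's change differed between lines was not tested, since each line gave 1 array per group.

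**Figure D4:**
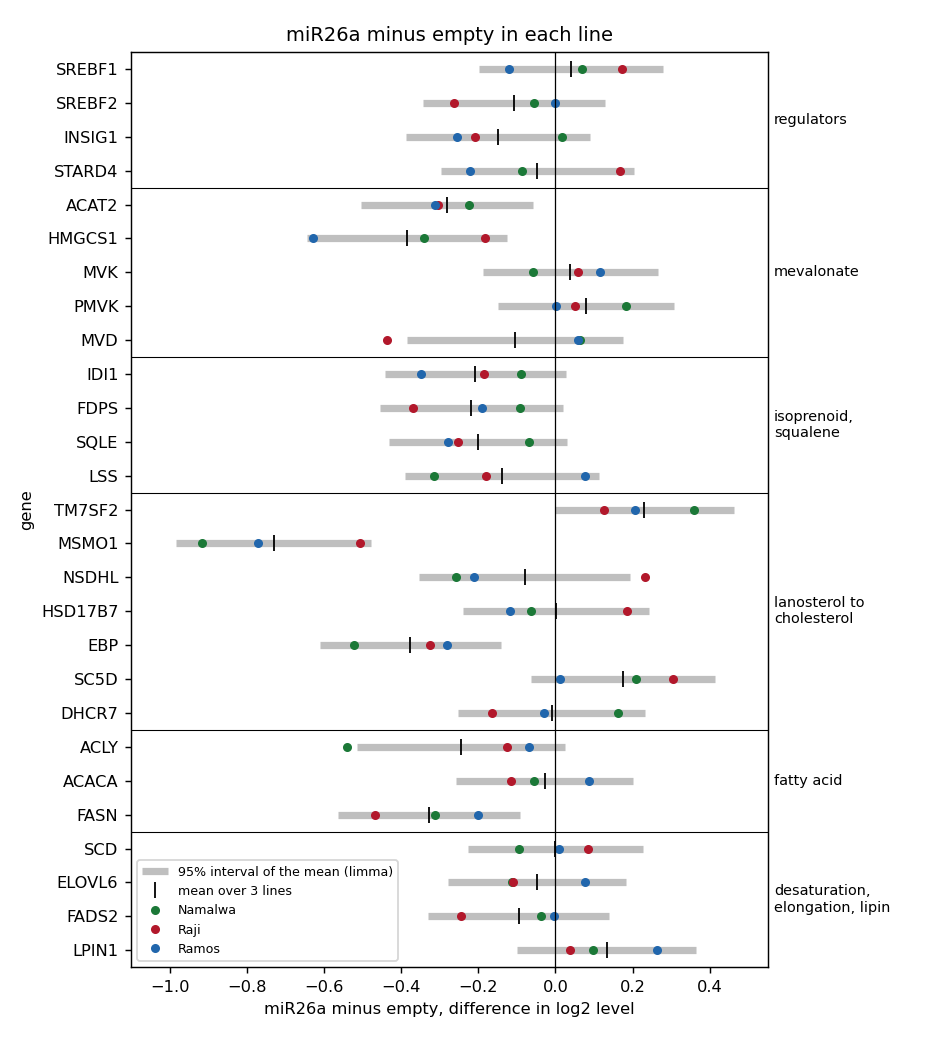
Coloured points give the miR26a minus empty difference in log2 level in Namalwa, Raji and Ramos for each of the 27 genes; the black tick is the mean over the 3 lines and the grey bar its 95% interval from limma. MSMO1 lies lowest, between -0.92 and -0.51, and most intervals include 0.

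Probe sets of the same gene often disagreed on these changes. Of 18 members with 2 or more probe sets above the level minimum, the probe sets had both signs for 14 in Namalwa, 9 in Raji and 11 in Ramos. In the same order of lines, the range of changes within a gene had a median of 0.34, 0.30 and 0.29 log2, with the largest at 1.30, 0.69 and 0.58. For ACLY the 3 probe sets ran from -0.54 to 0.54 in Namalwa but from -0.12 to 0.01 in Raji. For EBP 4 probe sets ran from -1.02 to 0.28 in Namalwa, and for SCD from -0.095 to 0.69. The Namalwa empty array is the one with the 3′ less 5′ ACTB signal of 3.58 log2, whose part in these values was not tested.

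**Figure D5:**
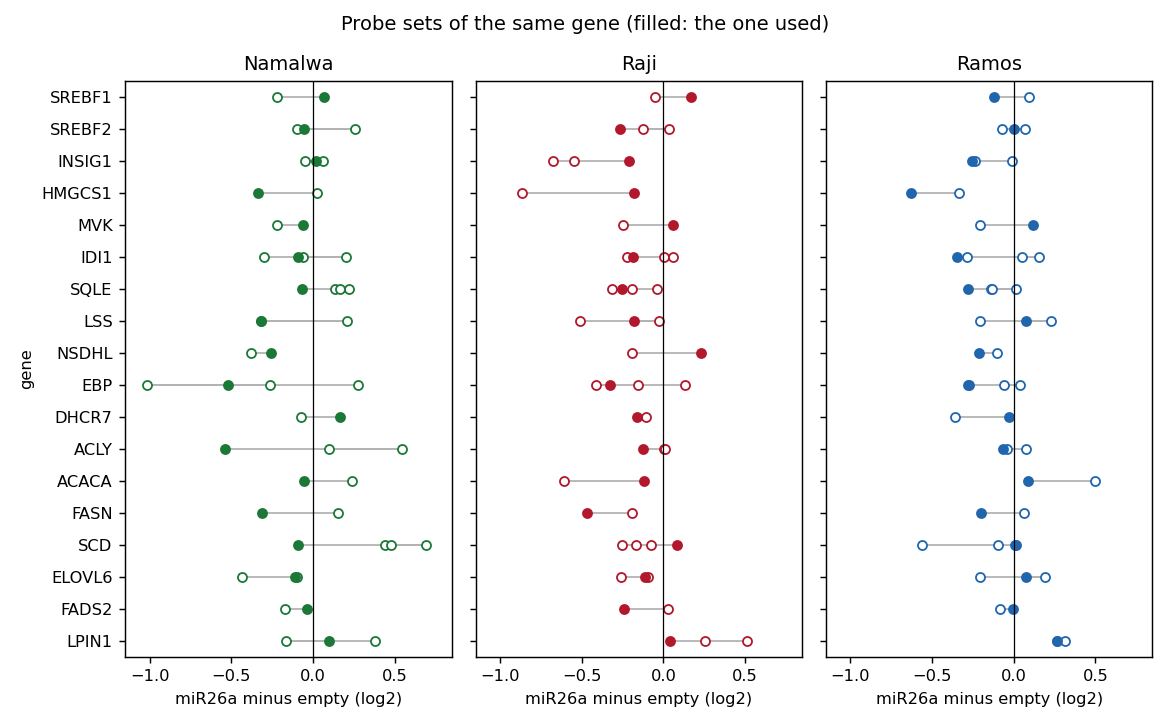
Circles give the miR26a minus empty difference in log2 level for each probe set above the level minimum, in the 18 genes with 2 or more, 1 panel per line; filled circles are the brightest probe set, used elsewhere, and grey lines join probe sets of 1 gene. The spread is widest in Namalwa for EBP, ACLY and SCD.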

How the data were processed

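The table deposited holds log2 intensities from the authors' RMA step, per the series' design text and the submitters' processing notes (GCOS and RMA, no versions given); all 54675 probe sets are in the table, and nothing was normalised again. RMA gives every array nearly the same distribution, so a shift of all RNAs would not be visible.

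Probe sets with 1 symbol (41091; 1801 had several and 11721 none, besides 62 controls) were named from the platform annotation, updated through Entrez IDs for 41037. The brightest probe set stood for a gene, with a level minimum of 4.42. limma (3.58.1, R 4.3.3) was fitted over 12012 genes comparing groups with line as a block, since each line gave both samples (deviations from the group means correlated at 0.861, 0.95 and 0.917 for Namalwa, Raji and Ramos), and comparing lines with group as a block. P-values were adjusted by Benjamini-Hochberg at 0.05. The fits of miR26a minus empty and Namalwa minus Raji were also run on simulated data. Those data held no differences between lines besides the changes put in, so fits under large line differences were not tested.

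Values on every array are given for members called with at least a 2-fold difference in any comparison and for the member of each step with the smallest p between groups; of other pathway genes, up to 4 per comparison with the largest differences are named, and ELOVL5 was added after its values were seen. The members and lists were chosen with earlier results of these data known. The motif CACCNCAC was added after seeing the data. Promoters and the microRNA are from RefSeq (GRCh38.p14). Whether members hold miR-26a seed sites was not analysed here.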

Additional observations from a re-analysis of the deposited data

Results flagged for a closer look

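In 12 members the miR26a minus empty difference was positive in at least 1 line and negative in another. Over all tested genes 19.6% were lower and 15.5% higher in all 3 lines. Most genes thus had mixed signs too, and these are not particular to the members. With 1 pair of arrays in each line, the difference between lines was not tested, and probe sets of 1 gene often differed by as much. Among regulators, the highest less the lowest change was 0.29 log2 for SREBF1, 0.27 for INSIG1 and 0.39 for STARD4. In the mevalonate and squalene steps it was 0.175 for MVK, 0.50 for MVD, where Raji alone was negative (-0.44), and 0.39 for LSS, where Ramos alone was positive (0.08). From lanosterol to cholesterol it was 0.49 for NSDHL and 0.30 for HSD17B7, in both of which Raji alone was positive (0.23 and 0.18), and 0.33 for DHCR7. For ACACA, SCD and ELOVL6 of the fatty acid route it was 0.20, 0.18 and 0.19.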

How the results depend on the processing

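Against Namalwa and against Ramos, the number of members differing from Raji stayed within 1.5 times of 19 and 23 under 14 of 15 alternatives each; with no moderation of the spread it was 1 and 6. Leaving out 1 array gave 17 to 19 and 20 to 23. Between Namalwa and Ramos the 7 calls became 4 with no level minimum, 11 with an intensity trend and robust prior, 0 with no moderation, 12 at an adjusted p under 0.1 and 4 with no group term, and 2 to 9 on leaving out 1 array. For miR26a minus empty, 1 member in place of 0 passed with a level minimum at percentile 75, with the intensity trend and robust prior, and at an adjusted p under 0.1, and 0 to 1 on leaving out a line (1 without Raji). Over all genes these settings called 50 of 7152, 102 of 12012, 79 of 12012 and, without Raji, 203 of 12012, so other genes were gained with it. The member was each time MSMO1, whose adjusted p ran from 0.00921 to 1 over 13 alternatives. With no replicate block 0 members passed (MSMO1 adjusted p = 1), and 0 with the line as a random block (adjusted p = 0.191). No called member reversed its direction under any alternative run. The fits of 2 arrays against 1 assume that the lone array varies like the others. Precision is limited by there being 6 arrays.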
